A study of Mus musculus with 9 samples.

Results

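The comparison described here set skin of a diabetic mouse model against non-diabetic skin removed at wounding. It used all samples that the labels put in these groups, 3 diabetic and 3 day 0 libraries, 6 of the 9 in the series. All 1129 miRNA rows of the count table were considered, and 447 passed the filter on low counts and were tested. The source was back skin of C57BL/6 mice, an inbred laboratory strain, all adult females aged 6 months, from which small RNA libraries were made. Wounds were set on the back with an 8 mm punch under pentobarbital anesthesia, and in the day 0 group the punched-out skin itself is the sample. The third group of the series, wound-edge skin at day 7, entered the fit for its estimate of spread and is quoted only for orientation. The diabetic mice carry the same strain, sex and age labels, and the labels used here do not say how diabetes was induced or for how long. The day of the diabetic samples is in conflict: their titles carry T7, their columns in the table carry T0, and their treatment label speaks of skin taken when the wound was made. The diabetic state and a possible difference in day therefore cannot be told apart. The labels speak of 9 mice in 3 groups but name no animal per sample, so the p-values reflect the spread among these samples only.

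miRNAs are short RNAs cut from the arms of hairpin transcripts. Loaded into an Argonaute protein, they pair through bases 2 to 8, the seed, with messenger RNAs and lower their stability and translation. miRNAs with the same seed share most predicted targets, and hairpins encoded side by side are often cut from a single primary transcript. In skin, miR-203 and miR-205 are abundant in keratinocytes, miR-223 and miR-142 in leukocytes, and miR-1, miR-133 and miR-206 in the striated muscle layer under the dermis. miR-21 is induced in injured and inflamed tissue, and several miRNAs of wound repair have been studied in diabetic animals.

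The mature sequences of the miRNAs on which the comparison turned are given here because their seeds and single-base differences group the results that follow. They are from RefSeq on GRCm38.p6, 5′ to 3′, with the seed in capitals, and 381 of the 447 tested miRNAs had an entry in that table. Coordinates are on that build and not on mm9, the build in the submitters' processing notes. The first set is the AAAGUGC seed of the miR-17/92 and miR-106b/25 clusters, whose members are known to promote cell proliferation, with miR-18a-5p from the same transcript as miR-17-5p and miR-20a-5p. The cluster of miR-106b and miR-93 lies within Mcm7 (miR-106b-5p at chr5:138165787-138165807, minus strand), and that of miR-17, miR-18a and miR-20a in exons of the non-coding host Mir17hg (miR-17-5p at chr14:115043684-115043706, plus strand).
miR-106b-5p: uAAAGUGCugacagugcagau
miR-93-5p: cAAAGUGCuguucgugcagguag
miR-20a-5p: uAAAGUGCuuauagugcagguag
miR-17-5p: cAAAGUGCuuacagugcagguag
miR-18a-5p: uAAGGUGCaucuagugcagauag

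The next set holds pairs that differ outside the seed and whose levels are compared as ratios below. miR-98-5p, from an intron of Huwe1 (chrX:151913229-151913250, plus strand), has the let-7 seed. Counting positions from 1 at the 5′ end, it differs from let-7a-5p by G11A and A19U. miR-100-5p differs from miR-99a-5p by U16A, and miR-10a-5p from miR-10b-5p by A12U.
let-7a-5p: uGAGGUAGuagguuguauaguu
miR-98-5p: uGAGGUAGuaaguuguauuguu
miR-99a-5p: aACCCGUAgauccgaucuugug
miR-100-5p: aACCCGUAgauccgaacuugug
miR-10b-5p: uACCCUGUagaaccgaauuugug
miR-10a-5p: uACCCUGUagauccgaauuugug

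The last set holds miR-342-3p, which had the smallest p of all rows, both arms of miR-21a, the abundant fibroblast miRNA miR-199a-5p, and miR-125b-5p. miR-342-3p lies in an intron of Evl (chr12:108658680-108658702, plus strand), and miR-21a-5p within an exon of Vmp1 (chr11:86584120-86584141, minus strand).
miR-342-3p: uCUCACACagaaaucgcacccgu
miR-21a-5p: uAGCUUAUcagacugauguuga
miR-21a-3p: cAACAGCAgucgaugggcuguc
miR-199a-5p: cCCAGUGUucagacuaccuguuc
miR-125b-5p: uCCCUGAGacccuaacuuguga

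Library totals ran from 2807482 to 5453539 counts at day 0 and from 2861130 to 5322272 in the diabetic group. The epidermal miRNAs that define skin were abundant in every library. miR-203-3p stood between 42252 and 66268 CPM (each count divided by the TMM-adjusted total of its library, on a fixed scale) and miR-205-5p between 5704 and 8759 CPM over the 6 libraries. No row of the table bears directly on the diabetic label, which was not checked. Diabetic replicate 3 was the highest diabetic library in summed muscle miRNAs and the lowest in the summed miR-17/92 group. Diabetic replicate 1 was the lowest in muscle miRNAs. Values without diabetic replicate 3 are given beside the main ones.

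The main question was which miRNAs differ between diabetic skin and day 0 skin. No miRNA passed the test (0 of 447 at a Benjamini-Hochberg adjusted p under 0.05, edgeR quasi-likelihood F test, 0%), and 40 (8.95%) had an unadjusted p under 0.05, of which 23 (5.15%) were higher and 17 (3.8%) lower in diabetic skin. DESeq2 called 5 of 446 (1.12%), miR-342-3p and miR-98-5p as higher and miR-21a-3p, miR-34b-3p and miR-135b-5p as lower. limma on TPM called 1, miR-342-3p, and edgeR without a filter on low counts called 10. The same test called 57 miRNAs (12.8%) between day 7 and day 0 and 89 (19.9%) between diabetic skin and day 7. The 3 comparisons share libraries, so these counts stand side by side and are not independent of each other.

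The root mean square difference of log2 CPM over the 447 miRNAs had a median of 0.686 (0.557 to 0.796) over the 9 pairs of a day 0 and a diabetic library. Within day 0 it was 0.714 (0.689 to 0.764, 3 pairs) and within the diabetic group 0.684 (0.548 to 0.806, 3 pairs). Libraries of these groups were thus about as far from libraries of their own group as from those of the other. Pairs of a day 0 and a day 7 library were 0.737 to 1.02 apart, and pairs of a day 7 and a diabetic library 0.875 to 1.14. Pairs share libraries, and no test was made on them.

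**Figure D1:**
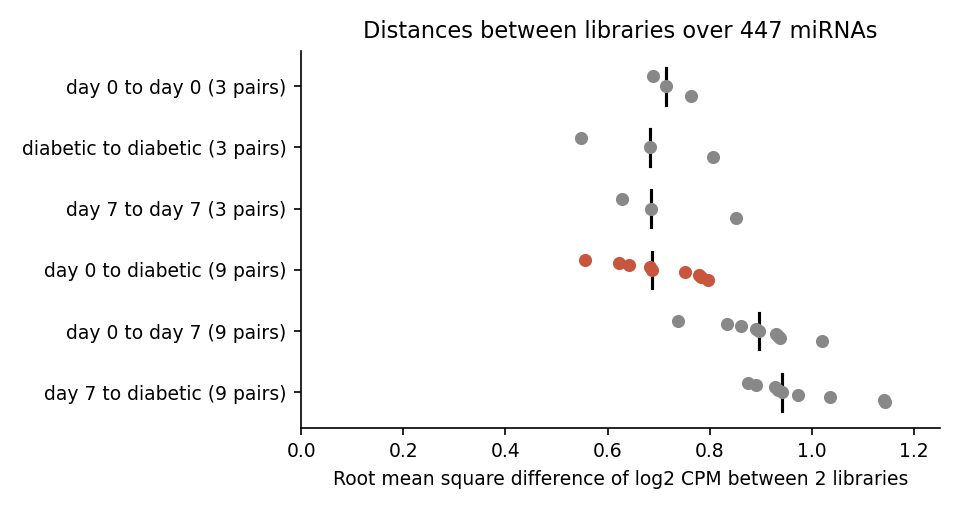
Root mean square difference of log2 CPM over 447 miRNAs for each pair of libraries (points) by the groups compared, with the median as a bar. The 9 pairs of day 0 and diabetic libraries (red) span 0.557 to 0.796, within the span of pairs inside the diabetic group, 0.548 to 0.806.

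The intervals of the fold changes show what the design could and could not see. The median log2 fold change (diabetic minus day 0) was 0.04, the median size regardless of sign was 0.24, and 239 of the 447 miRNAs (53.5%) had a value above 0. For 269 miRNAs (60.2%) the 95% interval lay wholly within a 2-fold change in either direction, and the median interval reached 0.63 log2 units to each side. Of the 161 miRNAs with a mean over 100 CPM, 0 had an estimate beyond 2-fold and 16 had an interval that reached 2-fold. Among those 16 were miR-21a-5p, miR-1a-3p, miR-206-3p, miR-34c-5p and miR-98-5p. Estimates beyond 2-fold belonged to 12 miRNAs, all with means between 1.19 and 31.4 CPM, and 2 of them had a mean of at least 10 CPM, miR-342-3p and miR-21a-3p.

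**Figure D2:**
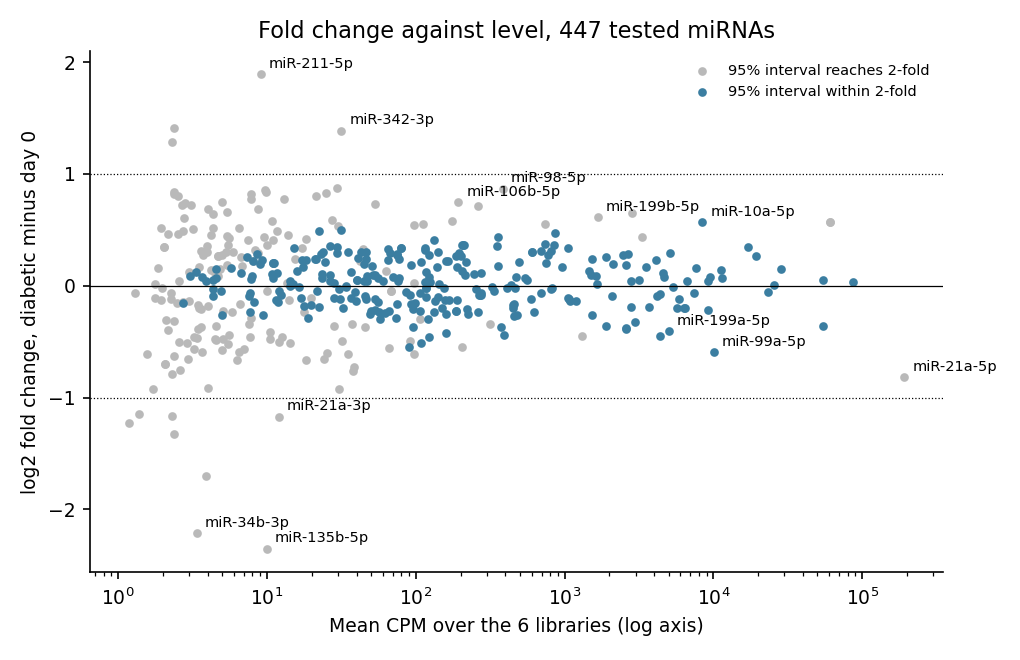
log2 fold change (diabetic minus day 0, vertical axis) against the mean CPM of the 6 libraries (log axis) for the 447 tested miRNAs. Blue points have a 95% interval within 2-fold in either direction (269 miRNAs), grey points do not, dotted lines mark 2-fold, and above 100 CPM every estimate lies between those lines.

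All 3 diabetic libraries lay above or below all 3 day 0 libraries for 62 miRNAs (13.9%), 37 higher (8.28%) and 25 lower (5.59%). Here and below, overlap of single miRNAs is judged on the TMM scale unless a share or another scaling is named. The split depended on the scaling: total counts gave 48 higher and 15 lower, relative log expression 28 and 33, upper quartile 20 and 42, and totals that leave out miR-21a-5p 16 and 34. With total counts the median of all tested miRNAs moved to 0.14, with limma on TPM also to 0.14, with relative log expression to -0.01, with upper quartile to -0.06 and with totals that leave out miR-21a-5p to -0.04. Directions named below for the 24 miRNAs with the smallest p were the same in these 4 scalings, in DESeq2 and in limma on TPM.

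miR-342-3p, which is expressed in lymphocytes, monocytes and fat cells, had the smallest p of all 447. It stood at 13.2, 21.1 and 17.6 CPM in the day 0 libraries and at 42.5, 47.9 and 46.2 CPM in the diabetic libraries. The groups did not overlap, and the diabetic libraries were tight around 45.5 CPM (SD 2.77, n = 3). The log2 fold change was 1.39 ± 0.24 (SE; 95% interval 0.86 to 1.92; edgeR adjusted p = 0.0569), or 2.62-fold. The call depended on the settings: it passed in 11 of 23 alternatives, among them a fit that blocked on the replicate number (1.41, edgeR adjusted p = 0.0281) and that without day 7 replicate 3 (adjusted p = 0.0386). Over these alternatives its adjusted p ran from 2.46e-04 (DESeq2) to 0.312 (edgeR, 1 library left out). At day 7, where the same day 0 libraries were the controls, it stood at 47.4, 59.5 and 43.3 CPM (log2 fold change 1.53, edgeR adjusted p = 0.00442). Its partner arm miR-342-5p was too low to test, with 0, 0 and 0 counts at day 0 and 16, 8 and 0 in the diabetic libraries, so the arms could not be compared.

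The miR-17/92 and paralogous clusters were the list with the most members apart between the groups. Of 12 tested members 10 had a positive and 2 a negative log2 fold change. In 6 of them all diabetic libraries were above all day 0 libraries on the TMM scale (against 8.28% of all miRNAs), and none passed the adjusted test. The 6 include both arms of miR-17 and members that share a transcript, which are not separate evidence. As a share of all counts the summed list overlapped, with 0.402% in day 0 replicate 1 and 0.374% in diabetic replicate 3. The median was 0.41 (0.04 over all miRNAs), positive in all 6 scalings and fits tried and from 0.32 to 0.52 with any day 0 or diabetic library left out. miR-106b-5p stood at 106, 159 and 164 CPM at day 0 and at 213.8, 263 and 247 CPM in diabetic skin (0.75 ± 0.20, edgeR adjusted p = 0.228). All diabetic libraries were higher, by a similar amount. Its neighbour miR-93-5p stood at 690, 702 and 761 CPM against 1196, 1027 and 762 CPM (0.47 ± 0.17). Here diabetic replicate 3 was level with the highest day 0 library.

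Among the members from Mir17hg, miR-20a-5p, miR-18a-5p and miR-17-5p were lowest in diabetic replicate 3 of the diabetic libraries, while miR-17-3p and miR-19b-3p were near level across them. miR-20a-5p was at 584, 606 and 601 CPM at day 0 and at 1064, 975 and 592 CPM in diabetic skin (0.56 ± 0.23), so diabetic replicate 3 lay at the day 0 level and the groups overlapped. miR-18a-5p was at 18.7, 23.5 and 21.0 CPM against 48.8, 40.0 and 26.9 CPM (0.88 ± 0.30). miR-17-5p was at 294, 308 and 305 CPM against 476, 434 and 318 CPM (0.44 ± 0.21), and its partner arm miR-17-3p at 14.97, 20.8 and 20.3 CPM against 25.3, 26.9 and 26.5 CPM (0.49 ± 0.22). Without diabetic replicate 3 the log2 fold changes of miR-20a-5p, miR-18a-5p and miR-93-5p were 0.76, 1.06 and 0.62. miR-19b-3p, of the same transcript but with another seed, was at 281, 305 and 337 CPM against 384, 415 and 383 CPM (0.36 ± 0.20). miR-92a-3p (0.37 ± 0.21, 0.57 without diabetic replicate 3 and 0.23 without diabetic replicate 1) and miR-25-3p (0.27 ± 0.15, 0.13 without diabetic replicate 1) overlapped. The negative values were those of the low-count members miR-20b-5p (-0.23) and miR-363-3p (-0.59), both from the paralogous cluster on the X chromosome. Summed over the list, day 0 libraries held 3196, 3586 and 3648 CPM and diabetic libraries 5427, 4948 and 3690 CPM. Grouped by seed alone, the 5 tested miRNAs with AAAGUGC had a median of 0.47, the largest of the 12 seed families with at least 3 tested members. On the TMM scale 3 of the 5 did not overlap.

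**Figure D3:**
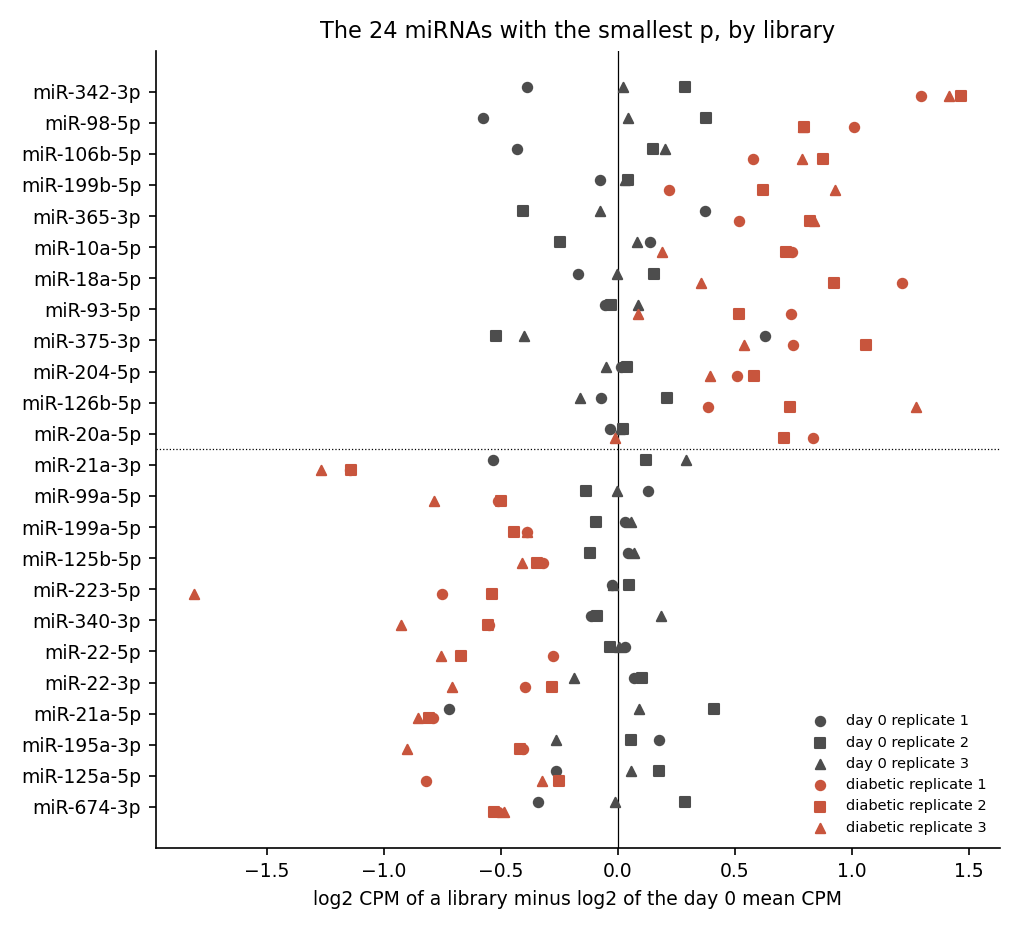
log2 CPM of each library minus log2 of the day 0 mean CPM for the 12 higher and 12 lower miRNAs with the smallest p and a mean of at least 10 CPM. Symbols mark replicates 1 to 3, grey for day 0 and red for diabetic: the groups do not overlap for 10 of the 12 higher and 11 of the 12 lower miRNAs, and diabetic replicate 3 (triangles) is nearest to day 0 for miR-20a-5p, miR-93-5p, miR-18a-5p and miR-10a-5p.

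The let-7 family, which holds back proliferation and is linked to differentiation and glucose handling, was close to no difference except for miR-98-5p. miR-98-5p stood at 182.4, 352 and 280 CPM at day 0 and at 546, 471 and 471 CPM in diabetic skin. All diabetic libraries were higher (0.87 ± 0.22, edgeR adjusted p = 0.217), and without a single library the value lay between 0.65 and 1.08. It passed with DESeq2 (adjusted p = 0.0404) and without a low-count filter. let-7f-5p, at 18508, 16287 and 18110 CPM against 19706, 22604 and 21421 CPM, also did not overlap, with a difference of 0.27 ± 0.16. The other 7 members overlapped, with log2 fold changes from -0.06 for let-7i-5p, the most abundant at day 0, to 0.21 for let-7d-5p. The sign for let-7i-5p turned with total counts (0.08) and with limma on TPM (0.06). let-7g-5p had 0.08 (and -0.02 with upper-quartile scaling). The family median was 0.16 (0.06 with upper-quartile scaling and 0.10 without diabetic replicate 2), with 8 of 9 values above 0.

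A ratio of related miRNAs within a library does not depend on the library scaling. miR-98-5p counts were 5.40, 14.3 and 11.9% of let-7a-5p counts at day 0 and 18.6, 14.5 and 20.6% in diabetic skin, so the groups were separate by a small margin. Against let-7c-5p, also 2 bases apart, miR-98-5p was at 2.32, 5.58 and 3.71% at day 0. In diabetic skin that ratio was 6.84, 5.47 and 6.18%, and the groups overlapped. miR-100-5p was 33.1, 29.5 and 35.1% of miR-99a-5p at day 0 and 41.1, 37.8 and 51.9% in diabetic skin. miR-10a-5p was 54.5, 69.9 and 67.9% of miR-10b-5p against 100, 94.97 and 61.3%, where diabetic replicate 3 fell among the day 0 libraries. Of 34 pairs with at most 2 base differences, 4 (11.8%) did not overlap: miR-98-5p to let-7a-5p, miR-100-5p to miR-99a-5p and miR-148b-3p to miR-148a-3p, all higher, and miR-195a-5p to miR-16-5p, lower. Reads of such pairs differ by 1 or 2 bases, and the mismatch settings and the treatment of reads with several matches are unknown here.

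The miR-99/100 and miR-125 list, whose members are encoded next to let-7 genes, was lower in all 5 members. miR-99a-5p stood at 13196, 10995 and 12042 CPM at day 0 and at 8479, 8538 and 6999 CPM in diabetic skin (-0.59 ± 0.17, edgeR adjusted p = 0.271). miR-125b-5p was at 2191, 1955 and 2229 CPM against 1700, 1672 and 1600 CPM (-0.36 ± 0.12). Both groups were tight and separate for these miRNAs on the TMM scale. miR-125a-5p (-0.44 ± 0.19, -0.29 without diabetic replicate 1), miR-99b-5p (-0.39 ± 0.21) and miR-100-5p (-0.19 ± 0.16) overlapped. The list median was -0.39, from -0.53 to -0.33 with any day 0 or diabetic library left out. Summed CPM were 22063, 20290 and 22276 at day 0 and 16325, 16057 and 14707 in diabetic skin. As a share of all counts the summed list overlapped, with 2.08% in day 0 replicate 2 and 2.24% in diabetic replicate 1.

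The miR-199 family, processed from fibroblast hairpins and linked to matrix production, was split. miR-199a-5p stood at 5838, 5361 and 5937 CPM at day 0 and at 4361, 4196 and 4367 CPM in diabetic skin (-0.41 ± 0.12, edgeR adjusted p = 0.312). miR-199b-5p stood at 1248, 1354 and 1342 CPM against 1529, 2022 and 2496 CPM (0.62 ± 0.18, edgeR adjusted p = 0.271). Neither overlapped between groups on the TMM scale, and they lay on opposite sides. In a ratio chosen after these values were seen, miR-199b-5p counts per 100 miR-199a-5p counts were 21.4, 25.3 and 22.6 at day 0 and 35.1, 48.2 and 57.2 in diabetic skin (23.1 ± 1.98 and 46.8 ± 11.1, SD, n = 3 each). Day 7 libraries had 12.7, 11.8 and 15.1. The 3p row, named miR-199a-3p, overlapped (-0.22 ± 0.14). No row was present for miR-199b-3p, so whether the 3p row holds reads of both hairpins cannot be told. Of the 8 tested fibroblast and matrix miRNAs, 2 were above and 6 below 0 (median -0.16). As a share of all counts this list overlapped, with 1.88% in day 0 replicate 2 and 2.15% in diabetic replicate 1. The antifibrotic miR-29a-3p was at 1187, 983 and 1156 CPM against 887, 1019 and 1159 CPM (-0.12 ± 0.14).

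miR-21a-5p, the most abundant row, stood at 147910, 324250 and 259947 CPM at day 0 and at 141236, 139561 and 134948 CPM in diabetic skin. The diabetic libraries were tight and below all day 0 libraries, while the lowest day 0 library was near them (-0.82 ± 0.32, 95% interval -1.53 to -0.10, edgeR adjusted p = 0.529). Of the alternatives tried it passed in 1, the fit without a low-count filter (edgeR adjusted p = 0.0488). As a share of all counts it was 26.4% ± 7.34 at day 0 and 16.6% ± 2.85 in diabetic skin (SD, n = 3 each, exact two-sided permutation p = 0.2), and the shares overlapped. Its rare partner arm miR-21a-3p was at 11.5, 18.1 and 20.3 CPM against 7.53, 7.55 and 6.89 CPM (-1.17 ± 0.30, edgeR adjusted p = 0.217, DESeq2 adjusted p = 0.0398). Both arms were thus lower in every diabetic library than in any day 0 library on the TMM scale. At day 7 both were far higher, at 496051 to 781406 and at 31.1 to 55.7 CPM.

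Most members of the myeloid and leukocyte list were a little lower in diabetic skin, with miR-342-3p on the other side. The leukocyte miRNAs miR-146a-5p (0.33) and miR-155-5p (0.30) are counted in the inflammation-induced list below. Both had positive values and overlapped between groups. Of 8 tested myeloid and leukocyte miRNAs, 7 had negative values and 1, miR-342-3p, a positive one (median -0.32, negative in all 6 scalings and fits tried, and -0.21 without diabetic replicate 1). Over all 447 miRNAs 53.5% were above 0. The 7 include both arms of miR-223, miR-142a and miR-511, and arms of the same hairpin are not separate evidence. miR-223-5p, the minor arm of the neutrophil miRNA, was at 39.2, 41.2 and 39.3 CPM against 23.7, 27.4 and 11.4 CPM (-0.92 ± 0.33, edgeR adjusted p = 0.463), with no overlap. The major arm miR-223-3p was at 83.1, 134 and 106 CPM against 86.1, 85.6 and 78.6 CPM and overlapped (-0.37 ± 0.22). The pan-leukocyte miR-142a-5p (425, 472 and 594 CPM against 364, 411 and 457 CPM, -0.27 ± 0.18), miR-142a-3p (-0.23 ± 0.19) and the lymphocyte miRNA miR-150-5p (-0.16 ± 0.26) overlapped too. The list summed to 867, 989 and 1110 CPM at day 0, to 755, 825 and 941 CPM in diabetic skin and to 1772 to 2378 CPM at day 7. In bulk tissue fewer cells of a type and less RNA per cell cannot be told apart.

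The inflammation-induced list, of NF-kB targets and related miRNAs, had 10 of 12 members below 0 and a median of -0.16 (-0.03 with total counts, -0.31 without diabetic replicate 1 and -0.07 without diabetic replicate 3). Apart from miR-21a its main members overlapped: miR-146b-5p was at 6004, 6170 and 6088 CPM against 6407, 5531 and 4006 CPM (-0.20 ± 0.19), and miR-146a-5p, a brake on Toll-like receptor signalling, at 1003, 761 and 1048 CPM against 974, 1058 and 1514 CPM (0.33 ± 0.19, 0.10 without diabetic replicate 3 and 0.18 without day 0 replicate 2). miR-155-5p, induced in activated macrophages and lymphocytes, was at 22.5, 15.2 and 26.1 CPM against 23.96, 28.7 and 25.5 CPM (0.30 ± 0.24). The erythroid list (5 tested) had a median of -0.08, and 0.02 with limma on TPM. Its rows of miR-486a-5p and miR-486a-3p hold nearly the same counts and are not separate members. Without near-identical rows the median was -0.05. miR-451a of red cells was at 951, 626 and 445 CPM against 664, 706 and 352 CPM (-0.23 ± 0.33). The hypoxia miRNA miR-210-3p was at 157, 180 and 181 CPM against 108, 138 and 188 CPM (-0.26 ± 0.25), and the median of the hypoxia list (2 tested) was -0.21, or 0.05 without day 0 replicate 3.

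The miR-34 family is induced by p53 and abundant in ciliated and some epithelial cells. It had 3 of 4 tested members lower with no overlap on the TMM scale (against 5.59% of all miRNAs). These are miR-34b-3p and both arms of miR-34c, and arms of the same hairpin are not separate evidence. miR-34c-5p was at 222, 272 and 229 CPM at day 0 and at 114, 185 and 196 CPM in diabetic skin (-0.55 ± 0.33). miR-34b-3p, named after its value was seen, had 4.74, 5.19 and 6.77 CPM against 1.10, 1.10 and 1.38 CPM, from 19, 29 and 20 counts against 8, 6 and 4 (-2.21 ± 0.45, edgeR adjusted p = 0.0954). It passed with DESeq2 (adjusted p = 0.0119) and with edgeR without day 7 replicate 3 (adjusted p = 0.0311). The partner arm miR-34b-5p was too low to test, with 8, 3 and 3 counts at day 0 and 6, 9 and 5 in the diabetic libraries. miR-34a-5p, from a separate locus, overlapped (0.24 ± 0.21). The list median of -0.73 rests on low counts. It was -0.37 without day 0 replicate 1, -0.29 without day 0 replicate 3, -0.30 without diabetic replicate 3, -0.21 without day 7 replicate 3, -0.20 without the low-count filter and -0.18 with a mean of at least 10 CPM. miR-135b-5p, also named after its value was seen, had 3.74, 25.4 and 20.6 CPM against 3.29, 2.76 and 3.79 CPM (-2.35 ± 0.58, edgeR adjusted p = 0.217), so the difference came from day 0 replicates 2 and 3.

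Epidermal miRNAs mostly overlapped between the groups. Of 13 keratinocyte and epithelial miRNAs, 9 were above and 4 below 0, with a median of 0.07 (-0.01 without day 0 replicate 1, -0.10 without diabetic replicate 1 and 0.20 without diabetic replicate 3). miR-203-3p, which drives keratinocytes out of the cell cycle, was at 50474, 49763 and 59156 CPM against 66268, 56548 and 42252 CPM (0.05 ± 0.21). miR-205-5p had -0.06 ± 0.18 (0.07 with total counts) and miR-200b-3p, which keeps the epithelial state, -0.01 ± 0.18 (0.13 with total counts). The sign for miR-203-3p turned with upper-quartile scaling (-0.04). miR-200a-3p (4622, 4465 and 4627 CPM against 5283, 5752 and 5722 CPM, 0.29 ± 0.18) and miR-96-5p (0.27 ± 0.16) did not overlap. miR-375-3p, a miRNA of pancreatic islets that is also found in Merkel and other epithelial cells, was at 24.2, 10.9 and 11.8 CPM against 26.3, 32.6 and 22.7 CPM (0.80 ± 0.31, edgeR adjusted p = 0.514) and overlapped through day 0 replicate 1, without which the value was 1.26.

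Both tested melanocyte miRNAs were higher, at low levels. miR-204-5p, from an intron of Trpm3, was at 26.2, 26.7 and 25.0 CPM at day 0 and at 37.0, 38.8 and 34.1 CPM in diabetic skin (0.50 ± 0.20, edgeR adjusted p = 0.529). miR-211-5p, which shares its seed and lies in an intron of the melanocyte gene Trpm1, was at 7.74, 1.97 and 2.03 CPM against 20.3, 16.02 and 6.55 CPM and overlapped (1.89 ± 0.56, edgeR adjusted p = 0.295). In counts it had 31, 11 and 6 against 148, 87 and 19. Melanocyte number and hair cycle stage at the sampled site are not in the labels.

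Muscle miRNAs spread widely within the diabetic group. miR-1a-3p stood at 50031, 56350 and 39338 CPM at day 0 and at 26395, 69004 and 121200 CPM in diabetic replicates 1, 2 and 3 (0.57 ± 0.45), so the diabetic libraries enclosed the day 0 range. miR-133a-3p (1669 to 5927 CPM in diabetic skin, 0.43 ± 0.41) and miR-206-3p (2080 to 4946 CPM, 0.65 ± 0.28, 0.28 without diabetic replicate 3) had the same library order. The list of 6 tested members had a median of 0.50, and of 0.05 without diabetic replicate 3, where miR-1a-3p and miR-133a-3p were each at -0.06. Without diabetic replicate 1, the lowest of the 6 libraries in summed muscle miRNAs, the list median was 0.85. Summed muscle miRNAs were 54543, 62682 and 44347 CPM at day 0 and 30301, 76620 and 132662 CPM in diabetic skin. Diabetic replicate 3, the highest, was also the diabetic library nearest to day 0 in miR-20a-5p, miR-93-5p and miR-10a-5p, and the part of its muscle content in those values was not tested. The rows of miR-1a-3p and miR-1b-5p, from opposite strands, hold nearly the same counts and cannot be told apart.

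**Figure D4:**
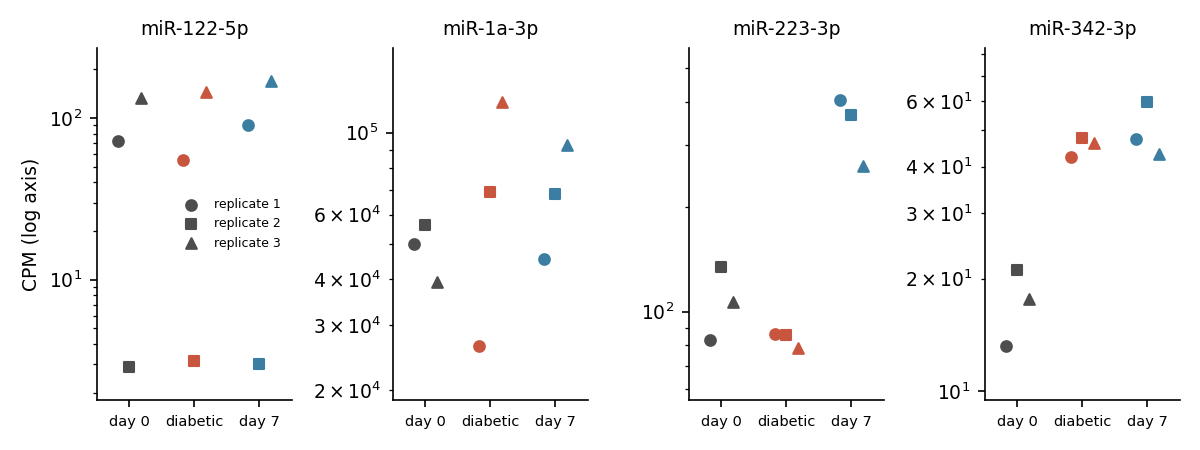
CPM (log axes, a separate scale in each panel) of miR-122-5p, miR-1a-3p, miR-223-3p and miR-342-3p in each library, with symbols for replicates 1 to 3. miR-122-5p follows the replicate number in every group, miR-1a-3p spreads from 26395 to 121200 CPM within the diabetic group, miR-223-3p is high only at day 7, and miR-342-3p is low only at day 0.

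miR-122-5p, a hepatocyte miRNA that is not made by skin and is carried in blood, differed by replicate number and not by group. It was at 72.6, 2.87 and 133.4 CPM at day 0, at 55.1, 3.13 and 144.8 CPM in diabetic skin and at 90.2, 3.01 and 171 CPM at day 7. The replicates numbered 2 were low and those numbered 3 high in each group. The labels do not say what a shared number stands for.

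Among the remaining lists, miRNAs reported in diabetic skin wounds had a median near 0. Of 16 tested, 8 were above and 8 below 0, the median was -0.003 (0.13 with total counts), and 1, miR-21a-5p, did not overlap and was lower (against 5.59% of all miRNAs, a like share). Its other abundant members were miR-26a-5p (0.15 ± 0.20) and miR-27b-3p (0.01 ± 0.21, and -0.04 with relative log expression scaling). miR-126a-3p, of endothelial cells, was at 6139, 6007 and 7452 CPM against 4951, 6228 and 9059 CPM (0.05 ± 0.21, -0.05 with upper-quartile scaling). miRNAs of beta cells or described as circulating in diabetes had 7 of 16 above 0 and a median of -0.02 (0.08 with total counts), with no member apart between the groups. These lists were drawn up from general knowledge of the field.

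The adipocyte and insulin sensitivity list had 8 of 10 values above 0, a median of 0.14, and 4 members apart between the groups, all higher (against 8.28% of all miRNAs). miR-365-3p, encoded beside miR-193 genes, was at 52.2, 30.4 and 38.2 CPM at day 0 and at 57.7, 71.1 and 72.0 CPM in diabetic skin (0.73 ± 0.24, edgeR adjusted p = 0.387). miR-193b-3p from one of those loci was at 110, 87.7 and 107 CPM against 116, 132.7 and 137 CPM (0.34 ± 0.27). miR-107-3p (120, 109 and 112 CPM against 169, 154 and 130 CPM, 0.41 ± 0.18) and miR-103-3p (0.20 ± 0.15), which regulate insulin sensitivity in mice, were higher by small amounts. Without diabetic replicate 3 the list median was 0.01.

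The endothelial list holds both arms of miR-126a and also miR-10a-5p, miR-10b-5p and miR-100-5p. Both arms of miR-126a overlapped (0.05 for 3p and 0.30 for 5p). The list median was 0.14 (5 tested, 0.00 without diabetic replicate 3 and -0.04 without day 0 replicate 2), with miR-10a-5p the member apart. It was at 7407, 5673 and 7119 CPM against 11258, 11086 and 7675 CPM (0.57 ± 0.19, edgeR adjusted p = 0.387), while miR-10b-5p overlapped (0.14 ± 0.19). Smooth muscle and pericyte miRNAs had a median of 0.17 (4 tested) and their main member miR-143-3p was at 71282, 80045 and 105883 CPM against 66183, 78745 and 118156 CPM (0.03 ± 0.27, -0.06 with upper-quartile scaling). Nerve miRNAs had a median of 0.27 (4 tested), with miR-128-3p, at 172, 132 and 123.5 CPM against 106, 108 and 97.2 CPM, lower (-0.46 ± 0.21). Medians were 0.23 for the miR-30 family (5 tested), 0.08 for miR-181 (7 tested, -0.003 with upper-quartile scaling), 0.07 for miR-15/16 (6 tested, -0.02 with upper-quartile scaling), -0.12 for liver and kidney miRNAs (4 tested) and -0.04 for the imprinted Dlk1-Dio3 locus (31 tested, 12 above and 19 below 0, 0.02 with total counts and 0.07 with limma on TPM). With 1 day 0 or diabetic library left out, medians ran from -0.25 to 0.24 for the Dlk1-Dio3 list, from -0.05 to 0.15 for miR-15/16, from -0.27 to 0.09 for the erythroid list and from -0.14 to 0.05 for the list of diabetic skin wounds, so their signs rest on single libraries. The medians of further lists moved by over 1.5 times: without diabetic replicate 3 they were 0.08 for nerve, -0.64 for liver and kidney, 0.10 for miR-30, 0.10 for smooth muscle and 0.20 for miR-181, and without diabetic replicate 1 they were -0.06 for fibroblast and matrix, 0.01 for miR-181 and 0.34 for smooth muscle. Over the 23 lists the medians ran from -0.73 to 1.19, and both ends were lists of 4 or fewer tested miRNAs.

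**Figure D5:**
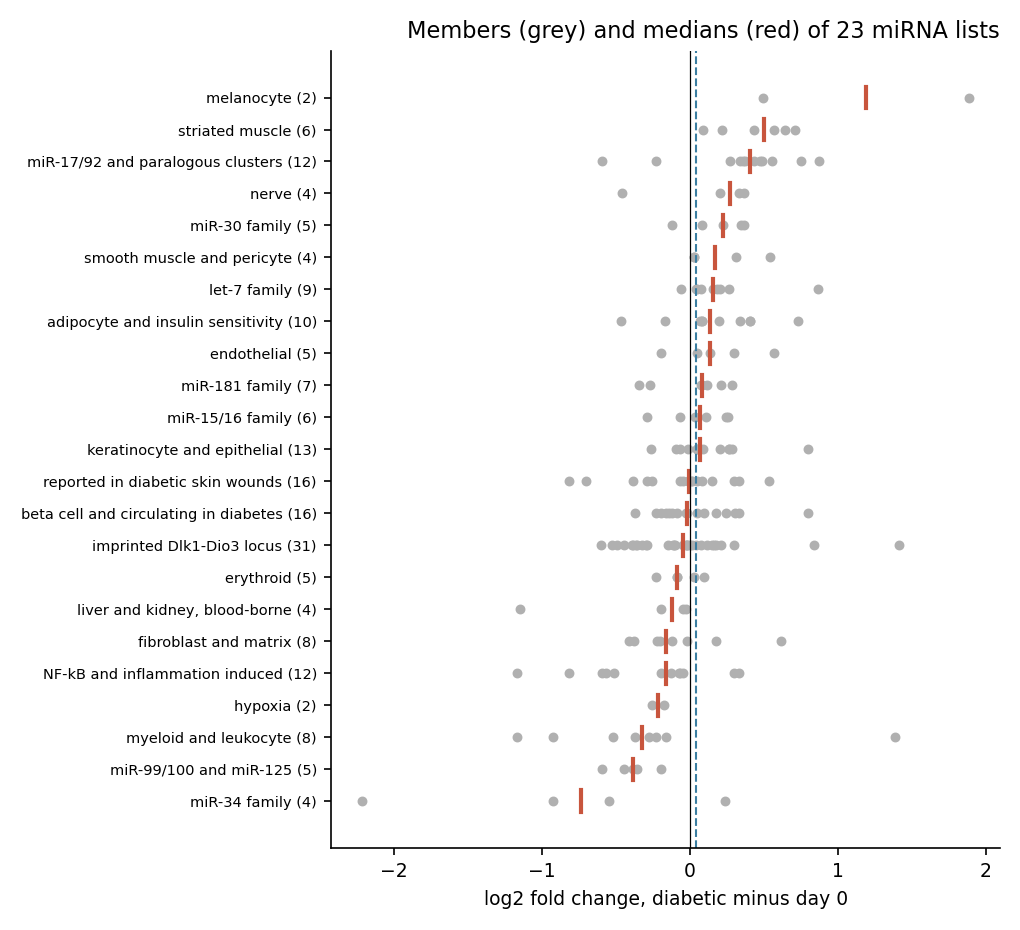
log2 fold change (diabetic minus day 0) of each tested member (grey points) and the median (red bar) of 23 miRNA lists, with the number tested in brackets. The dashed line marks the median of all 447 miRNAs, 0.04, and 12 of the 23 list medians lie above 0.

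Of the 12 lower miRNAs with the smallest p, those not yet described were likewise separate by small amounts. Both arms of miR-22, a miRNA linked to senescence and lipid metabolism, were lower: miR-22-3p at 5324, 5463 and 4463 CPM against 3860, 4186 and 3109 CPM (-0.45 ± 0.17, edgeR adjusted p = 0.463) and miR-22-5p at 109, 104 and 107 CPM against 87.9, 67.0 and 63.1 CPM (-0.55 ± 0.20). miR-340-3p was at 27.2, 27.8 and 33.5 CPM against 20.1, 20.1 and 15.5 CPM (-0.66 ± 0.24). miR-195a-3p (-0.55 ± 0.23) and miR-674-3p (-0.51 ± 0.22) did not overlap either. Among the higher ones miR-126b-5p was at 17.0, 20.6 and 15.9 CPM against 23.3, 29.6 and 43.1 CPM (0.83 ± 0.33, 0.54 without diabetic replicate 3). Over the 24 miRNAs the edgeR adjusted p ran from 0.0569 to 0.546. They were picked by p, so the 21 that do not overlap say nothing beyond that choice.

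The ratio of the 5p to the 3p arm of a hairpin, meant to compare strands of the same precursor within a library, was tested for 121 hairpins. Some of these have a row with nearly the same counts as another row, among them miR-486a (its own arms), miR-3065, miR-3071 and miR-126b. Such ratios cannot be read as the arms of a single precursor. No ratio passed (0 of 121, 0%, limma adjusted p under 0.05), 14 (11.6%) had an unadjusted p under 0.05 and 24 (19.8%) did not overlap between groups. The smallest p-values belonged to miR-376a (log2 ratio, diabetic minus day 0, of -1.80), miR-676 (-0.58), miR-93 (0.47), miR-340 (0.52) and miR-15b (-0.51), all at a limma adjusted p of 0.405. For miR-93 the 3p arm is rare, and the log2 ratio was 7.48, 7.65 and 7.61 at day 0 and 7.94, 8.02 and 8.20 in diabetic skin. All 3 diabetic libraries were higher by a similar step, diabetic replicate 3 included. For miR-340 the ratio was 5.24, 5.45 and 5.11 against 5.73, 5.85 and 5.78.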

How the data were processed

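Small RNA libraries of 9 mouse skin samples were compared through the authors' deposited table of counts per miRNA. The deposited TPM columns equal counts divided by the library total on a fixed scale, which was tested on the table, and were used only in an alternative. The submitters' processing notes name Bowtie, DESeq 3.0.3 and mm9, and name no role for them. Trimming, mismatch and multiple-match settings are not stated. Diabetic columns carry T0 and were matched to the samples titled T7 by letter and replicate number.

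Counts of all 9 libraries were fitted together with edgeR 4.0.16 (TMM scaling, quasi-likelihood F test, filterByExpr set to 10 counts per library and 15 in total) in R 4.3.3, and p-values were adjusted over 447 miRNAs. Untested rows hold 0.0217% of counts. Standard errors came from the F statistic. limma 3.58.1 tested arm ratios with 0.5 added to each count, and TPM with 1 added. DESeq2 1.42.0 was an alternative. The spread between replicates was 27.8% (biological coefficient of variation). No spike-in was used here, so changes are relative to other miRNAs. Counts are not deduplicated molecules. The fits were tested on simulated counts.

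The comparison, the 23 lists (212 entries, 205 in the table) and the naming rule were chosen with earlier results of these data known. The rule names the 12 higher and 12 lower miRNAs of smallest p with at least 10 CPM, those with at least 10 CPM that passed in an alternative other than leaving out 1 library, the 3 most abundant tested members of each list, the 10 most abundant rows and the 5 arm ratios of smallest p. Others named as examples from lists were chosen after their values were seen.

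Deviations from the group means of same-numbered day 0 and diabetic libraries correlated at 0.102, 0.484 and 0.175, all above the 0.1 taken as pairing, so fits that block on the replicate number were run as alternatives. Without the miR-122 rows the values were 0.0749, 0.176 and 0.0808. The labels give no source for this pairing.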

Additional observations from a re-analysis of the deposited data

How the results depend on the processing

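The count of miRNAs past the adjusted test was 0 in the edgeR fit reported and rested on the settings. It was 0 with relative log expression scaling, totals without miR-21a-5p, the 6 libraries alone, and the replicate block in 6 libraries. It was 1, miR-342-3p in each case, with upper-quartile scaling, total counts, limma on TPM, a mean of at least 10 CPM, the replicate block in 9 libraries, without near-identical rows and without the 5 most abundant miRNAs. DESeq2 called 5, DESeq2 without the low-count filter 3 (chosen after seeing the data), and edgeR without that filter 10, 4 higher and 6 lower. Leaving out 1 library gave 0 to 2 calls: miR-135b-5p without day 0 replicate 1, and miR-342-3p and miR-34b-3p without day 7 replicate 3. The cause was not tested. The replicate block changed no other call. The median of all miRNAs, 0.04, was -0.012 with relative log expression, -0.057 with upper quartile, 0.14 with total counts, -0.045 with totals without miR-21a-5p, -0.014 with DESeq2 and 0.14 with limma on TPM, and from -0.014 to 0.079 with 1 library left out. No arm ratio passed in any of the 13 settings tried, and the difference in the miR-21a-5p share kept its sign. As no miRNA passed in the fit reported, a turned sign could only be that of a miRNA that had not passed. The turned values, in log2 fold change, were as follows. With relative log expression scaling they were -0.019 for miR-143-3p, -0.037 for miR-27b-3p, -0.018 for miR-145a-3p and -0.0065 for miR-126a-3p. With upper-quartile scaling they were -0.058 for miR-143-3p, -0.036 for miR-203-3p, -0.069 for miR-27b-3p, -0.067 for miR-145a-3p, -0.050 for miR-126a-3p, -0.013 for miR-378a-3p, -0.010 for miR-30c-5p and -0.023 for let-7g-5p. Total counts gave 0.080 for let-7i-5p, 0.067 for miR-205-5p, 0.13 for miR-200b-3p, 0.051 for miR-194-5p and 0.0080 for miR-195a-5p. Totals without miR-21a-5p gave -0.083 for miR-143-3p, -0.054 for miR-27b-3p, -0.023 for miR-145a-3p, -0.074 for miR-126a-3p, -0.052 for miR-378a-3p and -0.030 for miR-30c-5p. DESeq2 gave -0.019 for miR-143-3p, -0.037 for miR-27b-3p, -0.015 for miR-145a-3p and -0.0065 for miR-126a-3p. DESeq2 without the filter gave -0.030 for miR-143-3p, -0.0042 for miR-203-3p, -0.047 for miR-27b-3p, -0.026 for miR-145a-3p and -0.019 for miR-126a-3p. limma on TPM gave 0.062 for let-7i-5p, 0.059 for miR-205-5p, 0.071 for miR-200b-3p, 0.018 for miR-486a-3p, 0.018 for miR-486a-5p, 0.057 for miR-194-5p, 0.021 for miR-122-5p, 0.014 for miR-195a-5p and 0.022 for miR-210-5p. A mean of at least 10 CPM gave -0.0056 for miR-27b-3p. The replicate block in 6 libraries gave -0.0030 for miR-143-3p and -0.0042 for miR-126a-3p. Leaving out near-identical rows gave -0.0017 for miR-27b-3p. Leaving out the 5 most abundant miRNAs gave -0.0053 for miR-27b-3p. With 1 library left out in turn they ran from -0.26 to 0.21 for miR-143-3p, from -0.059 to 0.97 for miR-1a-3p, from -0.059 to 0.97 for miR-1b-5p, from -0.10 to 0.20 for miR-203-3p, from -0.024 to 0.24 for miR-26a-5p, from -0.18 to 0.18 for miR-27b-3p and from -0.17 to 0.13 for let-7i-5p. Under the same omissions they ran from -0.24 to 0.050 for miR-205-5p, from -0.16 to 0.13 for miR-200b-3p, from -0.46 to 0.095 for miR-451a, from -0.28 to 0.093 for miR-486a-3p, from -0.27 to 0.089 for miR-486a-5p, from -0.063 to 0.79 for miR-133a-3p and from -0.12 to 0.11 for miR-145a-3p. Further ranges were from -0.061 to 0.34 for miR-10b-5p, from -0.24 to 0.23 for miR-126a-3p, from -0.21 to 0.27 for miR-378a-3p, from -0.17 to 0.21 for miR-30c-5p, from -0.026 to 0.52 for miR-338-3p, from -0.22 to 0.088 for miR-194-5p and from -1.22 to 0.84 for miR-122-5p. The remaining ranges were from -0.021 to 0.18 for let-7g-5p, from -0.25 to 0.051 for miR-195a-5p, from -0.054 to 0.22 for miR-497a-5p, from -0.51 to 0.31 for miR-210-5p and from -0.0097 to 0.28 for miR-379-5p. Of 84 named miRNAs over their alternatives, 1806 values kept sign and side, 21 newly passed and 95 turned sign. With 3 libraries a group, the median 95% interval, not adjusted for the number of tests, reached 0.63 log2 units to each side. That width is not the limit of detection of the adjusted test. Larger estimates did not pass it in the fit reported, among them 1.39 for miR-342-3p and -2.21 for miR-34b-3p.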
